A study of Mus musculus with 36 samples.

Results

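The genes described here are the amino acid and peptide transporters of mouse intestinal organoids, chosen by symbol as every listed gene of the solute carrier families Slc1, Slc3, Slc6, Slc7, Slc15, Slc36, Slc38 and Slc43. The rule found 40 of the 12652 listed genes. Of these, 38 encode carriers or their subunits, and 2 (Slc7a6os and Slc6a19os) are genes transcribed from the opposite strand that carry a member's symbol without encoding a transporter. The families Slc6 and Slc7 gave 10 members each, Slc38 gave 6, Slc1 and Slc15 gave 3 each, and Slc3, Slc36 and Slc43 gave 2 each. A filter on low values (at least 1 RPKM, which is a read count divided by gene length and by a divisor for each library, in at least 4 of 36 libraries) left 31 members for testing, namely 30 carriers and Slc7a6os. Of the 30, Slc7a3 passed only through its 4 RXRi libraries of 24 h, with at most 0.612 RPKM in all others. Slc6a20a, Slc6a20b and Slc15a1 passed only through DMSO, atRA and 9cisRA libraries of 24 h. For these 4 the filter favoured the direction in which those groups differ from the rest, and role counts are given with and without them. Counts over all 30 carriers include them.

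Organoids were grown from single cells of 2 male wild-type C57BL/6 littermates aged 8 weeks. They were treated with atRA (all-trans retinoic acid, 10 µM), 9cisRA (9-cis retinoic acid, 10 µM) and RXRi (an antagonist of the retinoid X receptor named by the labels only as such, 5 µM), each for 6 h and 24 h, and were compared with DMSO at the same times and with an untreated group at 0 h. Treatment began on day 3 together with a change of medium, from one with Wnt3a-conditioned medium, the ROCK inhibitor Y-27632 and the GSK3B inhibitor CHIR99021 on top of EGF, Noggin and R-spondin (ENR), to ENR alone, so that all groups at 6 h and 24 h share this change. Each of the 9 groups had 4 libraries, 2 from each mouse, with RNA of 3 pooled wells in each, and n is therefore 2 mice. The p-values rest on how far effects differed between the 2 mice, pooled over all 9 groups and moderated across genes. Where 4 values are given, they run mouse 1 duplicates 1 and 2, then mouse 2 duplicates 1 and 2.

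Amino acids leave the intestinal lumen through carriers of the brush border, either free or as di- and tripeptides, and enter the blood through exchangers and uniporters of the basolateral membrane. Several carriers of the Slc7 family reach the membrane only as heterodimers, with the heavy chain Slc3a1 at the brush border or Slc3a2 at the basolateral membrane. Dividing cells depend on another set, including the glutamine carrier Slc1a5 and the large neutral amino acid exchanger Slc7a5, which are known as targets of growth and amino acid stress signals. Retinoic acid isomers act through nuclear receptors that bind DNA as dimers with the retinoid X receptor, which is also the partner of several lipid-sensing receptors of the gut.

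The libraries held 19.6 to 30.7 M reads of the listed genes, as recovered from the RPKM steps, and 1 read of a gene of 2 kb corresponds to 0.0165 to 0.0244 RPKM. All 12 enterocyte markers searched were listed, against 0 of 6 fibroblast, 1 of 4 endothelial, 2 of 6 tuft cell and 3 of 6 immune markers. The summed RPKM of the enterocyte markers was 4398 to 6691 in RXRi libraries at 24 h and 14240 to 22280 in DMSO libraries at 24 h, and 10 of the 11 tested markers were lower with RXRi. That of the 6 dividing-cell markers was 238 to 251 with RXRi and 350 to 387 with DMSO at 24 h, and all 6 were lower. Of 6 Paneth cell markers 6 were lower with RXRi (median -1.08), of 7 stem cell markers 2 were higher and 4 lower, and of 7 goblet cell markers 3 were higher and 0 lower. These counts are to be read against 31.1% of all tested genes higher and 30.4% lower with RXRi at 24 h. In bulk RNA, fewer cells of a type and less RNA per cell cannot be told apart, and the part of cell composition in the carrier values was not tested.

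Some members cannot be read alone. Slc6a20a and Slc6a20b lie 2.21 kb apart on chromosome 9 and are closely related in sequence, so that the split of reads between them is uncertain. Slc6a19 (chr13:73679745-73704865, mm10) overlaps Slc6a19os on the other strand by 5040 bases, and Slc6a9 overlaps Ccdc24 and B4galt2 by 6034 and 5939 bases. Other members overlap genes of the other strand too, among them Slc7a5 (Gm20388, 26545 bases), Slc38a9 (Gm47827, 16558), Slc7a11 (Gm37854, 8812) and Slc7a4 (P2rx6, 5783). The handling of strand in the counting is not given in the sources used here. A further 3 pairs of carriers are neighbours, namely Slc38a1 and Slc38a2 on chromosome 15 (44.5 kb apart), Slc6a3 and Slc6a19 on chromosome 13 (101 kb) and Slc7a7 and Slc7a8 on chromosome 14 (304 kb).

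The carriers differed widely in how far they moved over the 9 groups. On the log2(RPKM + 0.5) scale, which is used for all tests and understates changes of low genes, the range over the group means was 5.33 for Slc6a19, 4.37 for Slc7a9, 4.17 for Slc3a1, 3.89 for Slc6a4, 3.86 for Slc6a20a, 3.65 for Slc15a1 and 3.29 for Slc7a8. It was 0.27 for the lysosomal carrier Slc38a9, 0.35 for Slc38a6 and 0.36 for Slc36a1. The group with the highest mean was an RA or DMSO group at 24 h for the 7 carriers with wide ranges, and RXRi at 24 h for Slc7a3, Slc6a9, Slc7a11, Slc7a5, Slc38a2, Slc7a1, Slc7a6 and Slc1a4, among others.

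**Figure D1:**
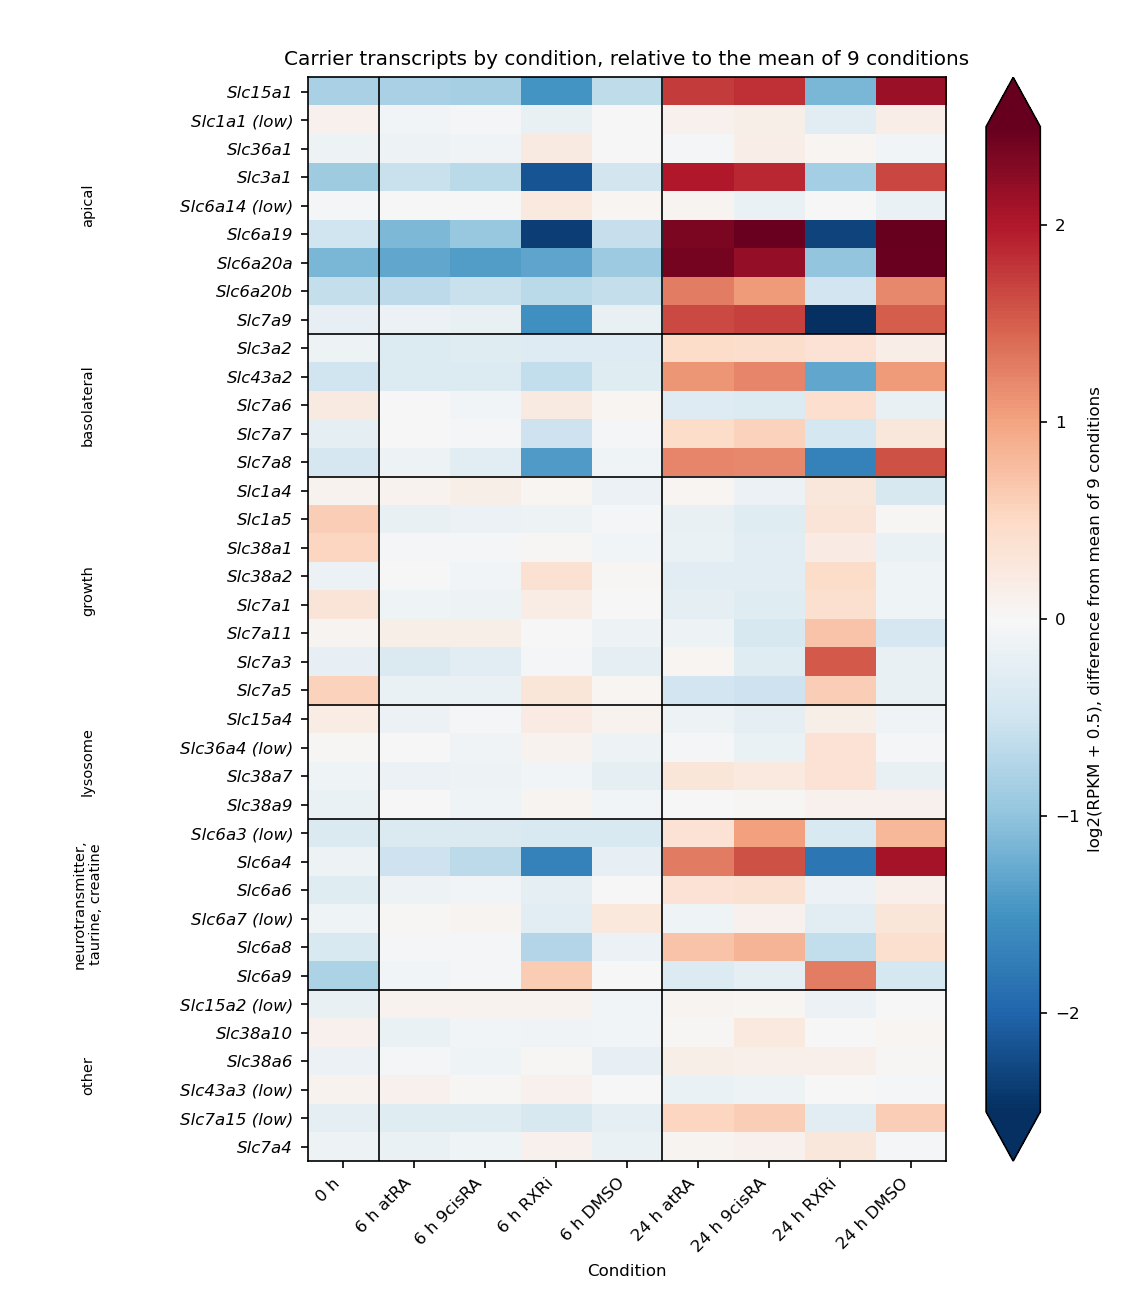
Colour gives log2(RPKM + 0.5) of the group mean in RPKM minus the average of that value over the 9 groups, for 38 carriers (rows, by role) and 9 groups (columns). Carriers marked low did not pass the filter. Slc6a19, Slc7a9, Slc3a1, Slc6a20a and Slc15a1 are red in the atRA, 9cisRA and DMSO columns at 24 h. They are blue, in part pale, in the other columns, which are all those of 0 h and 6 h and RXRi at 24 h. Slc7a3 and Slc6a9 are red with RXRi at 24 h.

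The first question is how the carriers moved in DMSO alone after the change of medium. By 24 h, 15 of 30 carriers were higher than at 0 h and 8 were lower (limma, Benjamini-Hochberg adjusted p under 0.05 over 11361 genes), against 29.2% of all tested genes higher and 30.3% lower. The higher count includes Slc15a1, Slc6a20a and Slc6a20b, for which the filter favoured that direction. The median log2 fold change was 0.22 over the carriers and -0.01 over all tested genes. Apical carriers rose, with 6 of 7 higher, none lower and a median of 2.54 (3 of 4 and 2.13 without the 3 that passed the filter through 24 h groups), and carriers of the growing cell fell, with 6 of 8 lower, none higher and a median of -0.48. These role lists were drawn up with earlier results of these data known.

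Slc15a1, the proton-coupled peptide transporter PepT1, stood at 5.76, 6.17, 8.88 and 10.7 RPKM in DMSO at 24 h, against 0.409, 0.648, 0.561 and 0.671 RPKM at 0 h. The log2 fold change was 2.93 ± 0.13 (± gives the SE). Slc15a1 passed the filter only through DMSO, atRA and 9cisRA libraries of 24 h, so its test after filtering supports nothing. Slc6a19, the carrier B0AT1 for neutral amino acids whose loss causes Hartnup disorder in humans, stood at 20.7, 21.2, 30.3 and 36.2 RPKM in DMSO at 24 h and at 1.62, 2.65, 1.46 and 2.25 RPKM at 0 h. Its log2 fold change was 3.46 ± 0.15 (limma adjusted p = 1.35e-09). The proline carrier Slc6a20a had the highest log2 fold change of the carriers, at 3.59 ± 0.19, under the same limit of the filter as Slc15a1. It stood at 9.30 to 13.9 RPKM in DMSO at 24 h and 0.366 to 0.558 RPKM at 0 h. The subunits of the cystine and dibasic amino acid exchanger of the brush border both rose, the heavy chain Slc3a1 by 2.54 ± 0.09 and the light chain Slc7a9 by 1.71 ± 0.09 on the log2 scale (limma adjusted p = 4.06e-10 and 4.92e-09).

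On the basolateral side, 4 of 5 carriers rose and 1 fell by 24 h. The neutral amino acid exchanger Slc7a8 rose by 2.00 ± 0.12, the uniporter Slc43a2 by 1.53 ± 0.11, the dibasic amino acid exchanger Slc7a7 by 0.54 ± 0.06 and their heavy chain Slc3a2 by 0.29 ± 0.05 on the log2 scale, and Slc7a6, a relative of Slc7a7, fell by 0.40 ± 0.06. Among the carriers of the growing cell, Slc7a5 fell to 20.5, 22.6, 22.1 and 20.8 RPKM in DMSO at 24 h, against 36.5, 39.7, 36.6 and 34.6 RPKM at 0 h, with no overlap. Its log2 fold change was -0.76 ± 0.08 (limma adjusted p = 5.09e-06), beside -0.71 ± 0.05 for the glutamine carrier Slc38a1, -0.58 ± 0.05 for Slc1a5, -0.49 ± 0.07 for Slc1a4 and -0.44 ± 0.05 for the cationic amino acid carrier Slc7a1. All 4 tested carriers of neurotransmitters, taurine and creatine rose, led by the serotonin transporter Slc6a4 at 2.22 ± 0.12 and the creatine transporter Slc6a8 at 0.80 ± 0.07. The summed RPKM of the enterocyte markers was 14240 to 22280 in DMSO at 24 h and 2399 to 3236 at 0 h, that of the dividing-cell markers 350 to 387 at 24 h and 456 to 530 at 0 h, that of 7 goblet cell markers 590 to 663 at 24 h and 166 to 219 at 0 h, and that of 6 Paneth cell markers 315 to 469 at 24 h and 116 to 199.8 at 0 h. Their part in these differences was not tested.

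At 6 h, 5 of the 8 growing-cell carriers were already called lower and 1 of the 7 apical carriers higher. At 6 h against 0 h in DMSO, 6 of 30 carriers were higher and 8 lower, against 22.3% and 23.4% of all tested genes. Slc1a5 fell to 37.5 to 41.1 RPKM in DMSO at 6 h, against 61.6 to 65.7 RPKM at 0 h, a log2 fold change of -0.66 ± 0.05 (limma adjusted p = 7.03e-07), followed by Slc38a1 at -0.61 ± 0.05, Slc7a5 at -0.53 ± 0.08 and Slc7a1 at -0.32 ± 0.05. The glycine transporter Slc6a9 had the highest log2 fold change, 0.80 ± 0.08, and of the apical carriers only Slc3a1 was called, at 0.41 ± 0.09. Slc15a1 was at 0.459, 0.596, 1.02 and 0.764 RPKM in DMSO at 6 h and overlapped the 0 h libraries. Calls for Slc1a4, Slc7a6 and Slc38a10 each ended when 1 library was left out, with adjusted p up to 0.0506, 0.0978 and 0.179 by limma without a 0 h library of mouse 1 for Slc1a4 and a 6 h DMSO library for each of the others. The Slc7a6 call also ended after quantile normalization (limma adjusted p = 0.0547).

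Between 24 h and 6 h in DMSO, 13 carriers were higher and 5 lower, against 25.4% and 24.5% of all tested genes, and 12 higher and 8 lower after quantile normalization or with libraries scaled to the sum of reads. Slc15a1, Slc6a20a and Slc6a20b, for which the filter favoured that direction, are among the 13 higher. The highest log2 fold changes were 3.55 ± 0.15 for Slc6a19, 3.38 ± 0.19 for Slc6a20a and 2.77 ± 0.13 for Slc15a1. Those of Slc6a20a and Slc15a1 are under the limit of the filter given above. Slc6a9 turned, with -0.44 ± 0.08 between these times after its higher level at 6 h. The call for Slc7a5 (-0.23 ± 0.08) ended without 1 library of 5, with an adjusted p of 0.0609 by limma without a 6 h DMSO library of mouse 2. In mouse 2 alone its log2 fold change was -0.08, so the difference lay mostly in mouse 1.

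The second question is what the RXR antagonist did. Against DMSO at 24 h, 14 of 30 carriers were higher and 12 lower with RXRi (limma, adjusted p under 0.05), against 31.1% and 30.4% of all tested genes, and the median was 0.10 over the carriers and 0.00 over all tested genes. The higher count includes Slc7a3 and the lower count Slc15a1, Slc6a20a and Slc6a20b, for which the filter favoured those directions. Of the 7 tested apical carriers, 6 were lower and none was higher, with a median of -3.26, or 3 of 4 with a median of -3.36 without those that passed the filter through 24 h groups other than RXRi. Of the carriers of the growing cell other than Slc7a3, whose place among the tested genes rested on its level with RXRi, all 7 were higher, with a median of 0.56. The other roles were mixed or not called throughout, with 2 higher and 3 lower of 5 basolateral carriers, 1 higher and 3 lower of 4 carriers of neurotransmitters, taurine and creatine, 2 higher of 3 lysosomal carriers and 1 higher of 3 less studied ones. No difference between roles was tested, and the role lists were drawn up with earlier results of these data known. RXRi at 24 h and DMSO at 24 h against 0 h share the DMSO libraries of 24 h, so the opposite signs in these comparisons are not independent of each other.

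Slc6a19 was at 0.191, 0.149, 0.363 and 0.114 RPKM in RXRi libraries at 24 h, against 20.7, 21.2, 30.3 and 36.2 RPKM in DMSO libraries. The groups were far apart, and the log2 fold change of -5.27 ± 0.15 (limma adjusted p = 7.07e-12) was the lowest of all carriers on the log2(RPKM + 0.5) scale. In recovered reads, the RXRi libraries held 55 reads of Slc6a19 in all and the DMSO libraries 6959. With reads scaled by the RPKM divisors of the libraries, this is a ratio of 0.00748 (95% exact interval 0.00563 to 0.00975, which covers counting error only). It is lower than the fitted ratio of 0.0260 because the added 0.5 RPKM damps changes of low values. By that ratio of reads, Slc6a4 was lower still. At 0 h, Slc6a19 was at 1.46 to 2.65 RPKM, above every RXRi library of 24 h.

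Slc7a9 was at 1.18, 1.13, 1.79 and 1.72 RPKM with RXRi and 32.0, 31.5, 38.2 and 37.4 RPKM with DMSO at 24 h, a log2 fold change of -4.19 ± 0.09 (limma adjusted p = 7.24e-13). Its RXRi libraries were also below all 4 libraries of 0 h, which held 9.80 to 10.5 RPKM. Its heavy chain Slc3a1 was at 5.82, 6.64, 9.84 and 8.62 RPKM with RXRi and 39.0 to 55.0 RPKM with DMSO, a log2 fold change of -2.53 ± 0.09, and its RXRi values overlapped the 6.61 to 8.52 RPKM of 0 h. The 2 chains of 1 exchanger were thus both lower, by unequal amounts.

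Slc15a1 was at 0.357, 0.185, 0.558 and 0.327 RPKM with RXRi and at 5.76, 6.17, 8.88 and 10.7 RPKM with DMSO at 24 h. This is a log2 fold change of -3.26 ± 0.13. Slc15a1 passed the filter only through 24 h groups other than RXRi, so its test after filtering supports nothing. With no filter, its adjusted p was 1.34e-10 by limma. Slc6a20a was at 0.553 to 0.689 RPKM with RXRi and 9.30 to 13.9 RPKM with DMSO (-3.44 ± 0.19). Slc6a20b was at 0.0909 to 0.183 RPKM with RXRi and 1.39 to 1.67 RPKM with DMSO (-1.67 ± 0.10). Both are under the same limit of the filter. With no filter, the adjusted p of Slc6a20a was 4.11e-09 by limma. Slc36a1, a proton-coupled carrier of small amino acids that is found at the brush border and in lysosomes, was the apical carrier that was not called, with a log2 fold change of 0.12 (95% interval -0.08 to 0.31).

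The 300-base window around the start site of Slc3a1 is shown because it was the only carrier window that held the HNF4-type sequence CAAAGTCCA, a form of the element bound by a nuclear receptor of enterocytes, and because Slc3a1 was among the carriers furthest from DMSO at 6 h. It is chr17:85028097-85028396, plus strand, RefSeq on GRCm38.p6, 250 bases before to 50 bases after the start, with the match in capitals.
Slc3a1: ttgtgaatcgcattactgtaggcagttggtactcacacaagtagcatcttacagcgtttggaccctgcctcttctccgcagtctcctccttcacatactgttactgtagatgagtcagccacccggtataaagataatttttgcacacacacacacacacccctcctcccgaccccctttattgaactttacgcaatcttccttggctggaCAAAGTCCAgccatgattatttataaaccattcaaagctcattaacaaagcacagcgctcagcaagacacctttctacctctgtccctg
The match began 39 bases before the start. Both strands were searched, and 0.555% of 27025 genes with a window held this sequence. The receptor half-site AGGTCA was in the windows of 5 of 29 carriers (17.2%) and of 18.1% of all genes, and 2 such half-sites in direct repeat with 1 base between them were in 0 of 29 carriers and 0.0481% of all genes. These matches describe letters in a window and were chosen after the carriers' values were known.

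On the basolateral side, RXRi lowered 3 of 5 carriers and raised 2 at 24 h. Slc7a8 was at 0.369, 0.455, 0.875 and 0.646 RPKM with RXRi, against 8.29, 8.06, 11.6 and 12.5 RPKM with DMSO, a log2 fold change of -3.29 ± 0.12 (limma adjusted p = 7.39e-11). Slc43a2 was at 0.523, 0.635, 0.646 and 0.607 RPKM with RXRi, against 3.88, 4.38, 5.79 and 6.72 RPKM with DMSO (-2.34 ± 0.11). Both carriers were below their 0 h levels of 1.83 to 2.37 and 1.2 to 1.63 RPKM.

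Slc7a7, mutated in lysinuric protein intolerance in humans, was lower by less, at 34.1, 36.8, 37.7 and 40.3 RPKM with RXRi and 57.8, 58.6, 63.8 and 67.8 RPKM with DMSO (-0.73 ± 0.06, limma adjusted p = 3.42e-07). Slc7a6 was higher by 0.61 ± 0.06, at 16.0 to 17.0 RPKM with RXRi and 10.3 to 11.0 RPKM with DMSO. The heavy chain Slc3a2, which pairs with Slc7a5, Slc7a6, Slc7a7, Slc7a8 and Slc7a11, was higher by 0.19 ± 0.05, at 80.2 to 86.9 RPKM with RXRi and 72.4 to 74.5 RPKM with DMSO. Its light chains thus lay on both sides of 0 at 24 h, and its own log2 fold change was smaller in size than that of each.

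The carriers of the growing cell were higher with RXRi at 24 h by 0.29 to 1.13 on the log2 scale, Slc7a3 aside. Slc7a5 was at 37.9, 36.8, 38.5 and 38.7 RPKM with RXRi, against 20.5, 22.6, 22.1 and 20.8 RPKM with DMSO, a log2 fold change of 0.81 ± 0.08 (limma adjusted p = 1.88e-06). Its RXRi libraries of 24 h lay within the 34.6 to 39.7 RPKM of 0 h. Slc7a11, the light chain of the cystine and glutamate exchanger, was at 9.77, 8.81, 8.92 and 8.89 RPKM with RXRi, against 3.94, 3.93, 3.91 and 3.75 RPKM with DMSO, a log2 fold change of 1.13 ± 0.14 (limma adjusted p = 9.62e-06), and above the 4.60 to 5.99 RPKM of 0 h.

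Slc7a3, a cationic amino acid carrier on the X chromosome, was at 2.52, 2.34, 2.14 and 2.32 RPKM with RXRi, against 0.292, 0.321, 0.327 and 0.467 RPKM with DMSO at 24 h, a log2 fold change of 1.73 ± 0.12. Since it passed the filter only through those RXRi libraries, its test after filtering supports nothing; with all 12652 listed genes fitted and no filter, its adjusted p was 1.37e-08 by limma. Its relative Slc7a1 was higher by 0.52 ± 0.05, at 26.1 to 29.4 RPKM with RXRi and 18.2 to 20.5 RPKM with DMSO. The other log2 fold changes were 0.67 ± 0.07 for the neutral amino acid exchanger Slc1a4, 0.56 ± 0.04 for the sodium-coupled carrier Slc38a2, 0.37 ± 0.05 for Slc38a1 and 0.29 ± 0.05 for Slc1a5. All 8 had the same sign in both mice.

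The windows of Slc7a11 and Slc1a4 are shown because they hold TGATGCAA, a core of the amino acid response element that ATF4 and C/EBP dimers bind, and because both carriers were higher with RXRi at 24 h. The Slc7a11 window is chr3:50443564-50443863 and the Slc1a4 window is chr11:20332664-20332963, both minus strand, RefSeq on GRCm38.p6, written in the direction of transcription with the core or its reverse complement in capitals.
Slc7a11: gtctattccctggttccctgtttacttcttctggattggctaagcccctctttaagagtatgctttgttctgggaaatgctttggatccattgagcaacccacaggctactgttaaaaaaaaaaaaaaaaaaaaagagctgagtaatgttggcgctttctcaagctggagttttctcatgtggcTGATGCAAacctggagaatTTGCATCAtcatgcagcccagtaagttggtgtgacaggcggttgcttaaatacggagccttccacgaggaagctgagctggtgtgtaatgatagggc
Slc1a4: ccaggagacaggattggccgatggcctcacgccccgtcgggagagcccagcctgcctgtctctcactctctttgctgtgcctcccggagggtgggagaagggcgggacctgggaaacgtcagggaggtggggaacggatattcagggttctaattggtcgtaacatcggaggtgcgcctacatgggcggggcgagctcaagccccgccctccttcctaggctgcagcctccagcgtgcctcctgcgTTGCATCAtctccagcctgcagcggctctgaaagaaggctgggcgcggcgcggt
Slc7a11 holds 2 copies facing each other and Slc1a4 holds 1 on the reverse strand. The core was in the windows of 3 of 29 carriers (10.3%) and of 1.03% of 27025 genes. The third carrier was Slc7a7, which was lower with RXRi. These matches were chosen after the carriers' values were known, and their part in those values was not tested. The longer form TGATGNAAT was in 0 of 29 carrier windows and 1.08% of all.

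The carriers of neurotransmitters, taurine and creatine included the member nearest to 0 reads. Slc6a4 was at 0, 0, 0.0387 and 0 RPKM in RXRi libraries at 24 h, that is 3 reads in all, against 6.23, 5.88, 7.56 and 8.61 RPKM and 2039 reads in DMSO libraries. The ratio of reads, scaled by the RPKM divisors, was 0.00139 (95% exact interval 0.000287 to 0.00407, counting error only). The fitted log2 fold change of -3.88 ± 0.12 depends on the added 0.5 RPKM and is no bound. Slc6a8 was at 13.2 to 15.6 RPKM with RXRi and 28.1 to 32.3 RPKM with DMSO (-1.03 ± 0.07), and the taurine transporter Slc6a6 at 59.2 to 61.1 RPKM with RXRi and 65.2 to 77.5 RPKM with DMSO (-0.26 ± 0.05).

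Slc6a9 went the other way, at 57.0, 57.9, 54.9 and 56.8 RPKM with RXRi and 17.5, 18.7, 16.1 and 15.0 RPKM with DMSO at 24 h, a log2 fold change of 1.73 ± 0.08 (limma adjusted p = 5.66e-10). Its RXRi libraries were also above the 12.4 to 13.6 RPKM of 0 h. Among the lysosomal carriers, the glutamine and asparagine carrier Slc38a7 was higher by 0.54 ± 0.07 and the histidine and peptide carrier Slc15a4 by 0.24 ± 0.07, while the arginine sensor Slc38a9 was not called (0.00, 95% interval -0.17 to 0.17). Of the less studied carriers, Slc7a4 was higher by 0.32 ± 0.08, and Slc38a6 and Slc38a10 were not called. The opposite-strand gene Slc7a6os was not called in any of the 14 comparisons.

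**Figure D2:**
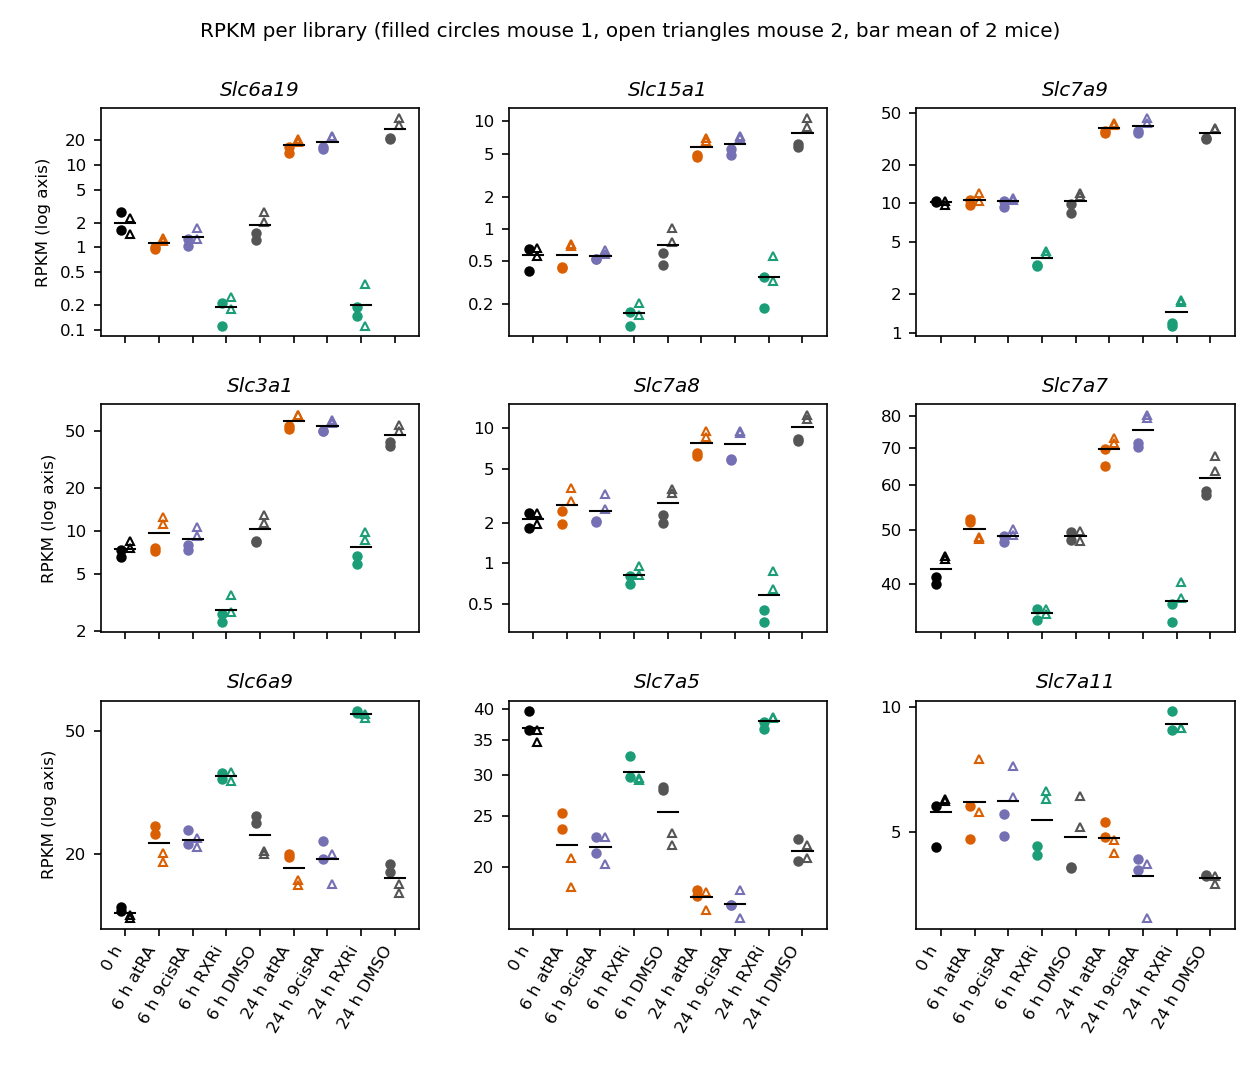
RPKM on a log axis in each of 36 libraries for 9 carriers, by group; filled circles are mouse 1, open triangles mouse 2, and bars the mean of the 2 mice. Slc6a19, Slc15a1, Slc7a9, Slc3a1, Slc7a8 and Slc7a7 lie lower with RXRi than with DMSO at both times, and Slc6a9, Slc7a5 and Slc7a11 lie higher with RXRi at 24 h.

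At 6 h fewer carriers were called. With RXRi against DMSO, 6 of 30 carriers were higher and 10 lower (limma, adjusted p under 0.05), against 10.6% and 14.6% of all tested genes. All 16 were also called in the same direction at 24 h, where 26 of 30 carriers were called. The 2 comparisons share the mice and the estimate of spread and are not independent. The share of all tested genes called at both times was not counted. Slc6a19 was at 0.114, 0.211, 0.180 and 0.251 RPKM with RXRi at 6 h and 1.49, 1.23, 2.66 and 2.05 RPKM with DMSO (-1.74 ± 0.15, limma adjusted p = 2.12e-06). Slc3a1 was at 2.30, 2.61, 2.72 and 3.55 RPKM with RXRi, against 8.38, 8.54, 12.8 and 11.4 RPKM with DMSO (-1.70 ± 0.09, limma adjusted p = 3.22e-08). Both were below every library of 0 h. The summed enterocyte markers were at 1374 to 2021 RPKM with RXRi and 2179 to 3640 RPKM with DMSO at 6 h, and 10 of 11 tested markers were lower.

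Slc6a4 (-1.47 ± 0.12), Slc7a9 (-1.35 ± 0.09), Slc7a8 (-1.28 ± 0.12), Slc15a1 (-0.84 ± 0.13), Slc6a8 (-0.59 ± 0.07), Slc7a7 (-0.45 ± 0.06), Slc43a2 (-0.33 ± 0.11) and Slc6a6 (-0.26 ± 0.05) followed at 6 h, with the log2 fold change and SE in brackets. Slc6a20a and Slc6a20b were not called at 6 h, at -0.40 (95% interval -0.80 to -0.00; limma adjusted p = 0.139) and -0.08. Among the carriers that were higher, Slc6a9 was at 34.5 to 36.9 RPKM with RXRi and 20.1 to 26.6 RPKM with DMSO (0.63 ± 0.08), and Slc38a2 at 53.8 to 59.4 RPKM with RXRi and 43 to 45.4 RPKM with DMSO (0.34 ± 0.04). The calls for Slc43a2, Slc7a6, Slc7a5 and Slc7a1 at 6 h ended without 1 of several libraries, with adjusted p up to 0.103, 0.1, 0.0712 and 0.0776 by limma. Those largest values came without DMSO libraries of 6 h for Slc43a2 and Slc7a6, an atRA library of 6 h for Slc7a5 and a 9cisRA library of 6 h for Slc7a1, the last 2 entering through the shared estimate of spread. In mouse 1 alone the log2 fold change was 0.14 for Slc7a5 and 0.11 for Slc7a1, against 0.26 and 0.18 over both mice.

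The change of the RXRi effect from 6 h to 24 h was itself tested. It was called higher for 12 carriers and lower for 11, against 18.6% and 16.5% of all tested genes. Both counts include carriers under the limit of the filter, with Slc7a3 among the higher and Slc6a20a among the lower. The effect on Slc6a19 was lower at 24 h than at 6 h by -3.53 ± 0.21 and that on Slc7a9 by -2.83 ± 0.12 on the log2 scale (limma adjusted p = 9.55e-08 and 8.45e-09). For Slc6a20a the change was -3.03 ± 0.26, under the limit of its filter given above. The 7 carriers of the growing cell other than Slc7a3 had a higher effect at 24 h, with 1.01 ± 0.20 for Slc7a11, and Slc6a9 had 1.10 ± 0.11. For Slc7a3 the change was 1.53 ± 0.17, under the limit of its filter given above. For Slc6a6 the effect was close at both times, -0.26 at 6 h and -0.26 at 24 h.

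**Figure D3:**
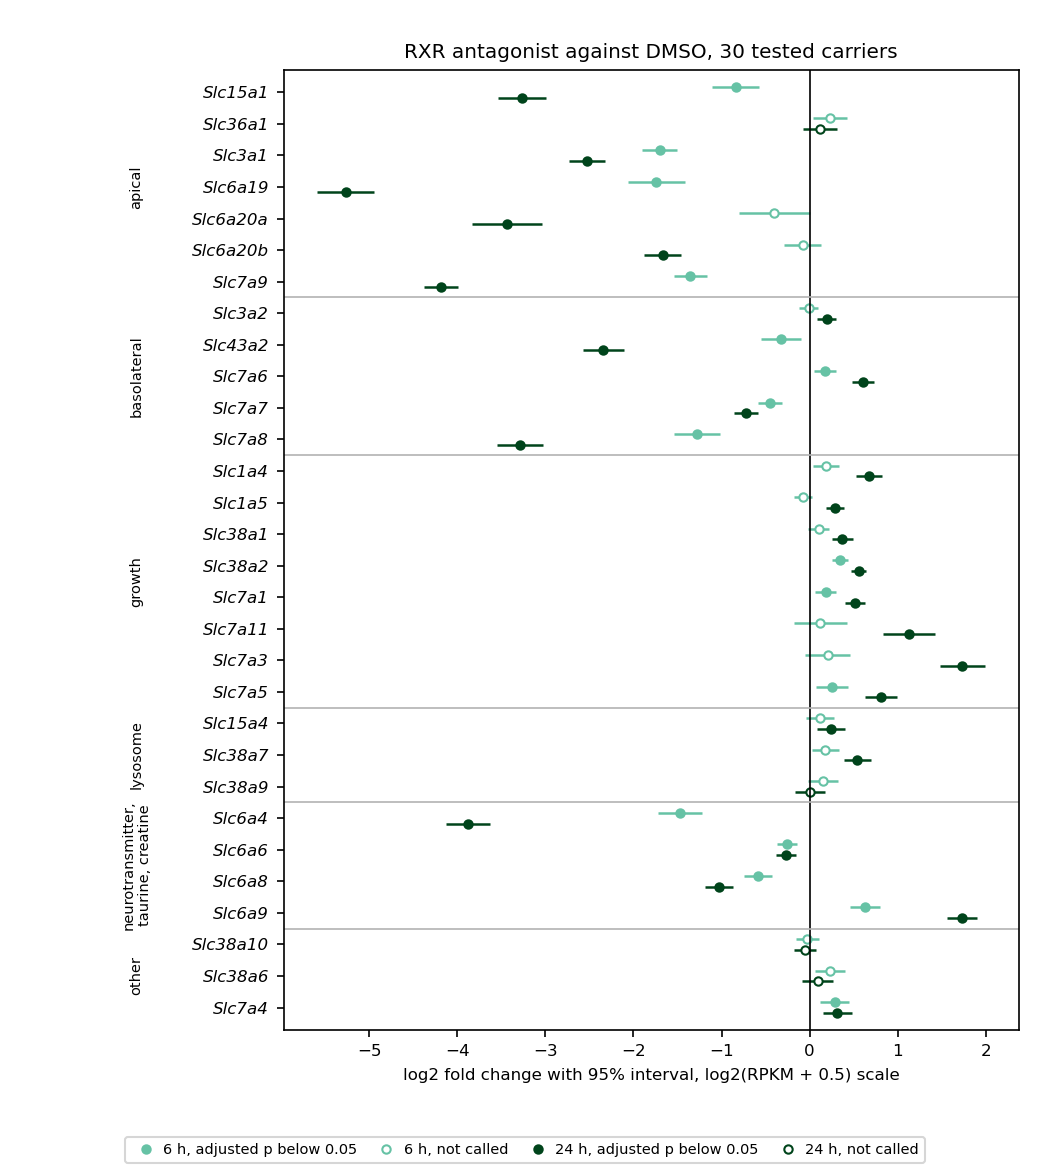
Log2 fold change of RXRi against DMSO with its 95% interval (horizontal axis) for 30 tested carriers (vertical axis, by role) at 6 h (light) and 24 h (dark); filled points passed an adjusted p of 0.05. Apical carriers other than Slc36a1 lie far left of 0 at 24 h, down to -5.27 for Slc6a19. Of these, Slc6a20a, Slc6a20b and Slc15a1 passed the filter only through 24 h groups other than RXRi. All 8 growing-cell carriers, including Slc7a3 that passed the filter only through RXRi libraries, lie right of 0.

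Genes that work beside the carriers were counted from lists, to be read against 31.1% of all tested genes higher and 30.4% lower with RXRi at 24 h, and 10.6% and 14.6% at 6 h. Of 10 tested peptidases of the brush border, which release the amino acids and short peptides that apical carriers take up, RXRi lowered all 10 at 24 h (median -3.74) and 5 at 6 h (median -0.76). The meprin subunit Mep1b was at 6.33 to 13.2 RPKM with RXRi and 129 to 187 RPKM with DMSO at 24 h (-3.96 ± 0.11). Of 9 cytosolic peptidases, 3 were higher and 4 lower at 24 h (33.3% and 44.4%, median -0.01), with Lta4h at -1.21 ± 0.05. Of 5 tested genes in a list of partners and further transporters, 4 were lower, among them the aromatic amino acid carrier Slc16a10 at -2.02 ± 0.12. These members also include Slc37a4, a carrier of glucose phosphate, and Ctns, a carrier of cystine in lysosomes.

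Of 22 tested genes of the amino acid response outside the carriers, all known or proposed targets of ATF4, 16 were higher and 2 lower with RXRi at 24 h (median 0.85), and 12 higher and 2 lower at 6 h (median 0.24). Asparagine synthetase Asns was at 155 to 163 RPKM with RXRi and 78.6 to 88.8 RPKM with DMSO at 24 h (0.95 ± 0.04, limma adjusted p = 6.60e-10). Chac1, which degrades glutathione, was at 21.3 to 24.8 RPKM with RXRi and 3.17 to 4.01 RPKM with DMSO (2.55 ± 0.11), and Vldlr, a lipoprotein receptor, was higher by 2.83 ± 0.10. Of 19 tested genes of amino acid sensing by mTORC1, 7 were higher and 4 lower at 24 h (36.8% and 21.1%, median 0.07), and 2 higher and 2 lower at 6 h (10.5% each), near or below the shares of all tested genes. Sesn1 was lower by -1.44 ± 0.08 and Rragd by -1.47 ± 0.09 at 24 h, while Sesn3 was higher by 0.75 ± 0.07. In DMSO at 24 h against 0 h, which shares the DMSO libraries, 29.2% of all tested genes were higher and 30.3% lower. There, 10 of 10 brush border peptidases were higher (median 2.27), and of the amino acid response genes 4 were higher and 10 lower (median -0.15). Among the response genes at 24 h, atRA raised 5 and lowered 7 (22.7% and 31.8%, against 19.4% and 18.6% of all tested genes), and 9cisRA raised 3 and lowered 11 (13.6% and 50%, against 24.4% and 23.5%; median -0.17). Of the 10 brush border peptidases at 24 h, atRA raised 2 and lowered 6 (median -0.56), and 9cisRA raised 2 and lowered 4 (median -0.46).

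The third question is the effect of the retinoic acid isomers, which was small on these carriers. With atRA at 6 h, 0 of 30 carriers were called by limma, against 2.79% of all tested genes higher and 1.87% lower. At an unadjusted p under 0.05 there were 7, of which 1 was higher and 6 lower, and 0 were called by voom on recovered reads. The count reached 2 without an atRA library of mouse 2, and the lowest log2 fold change was -0.51 ± 0.15 for Slc6a19 (limma adjusted p = 0.0736). With 9cisRA at 6 h, 1 carrier was higher and 1 lower, against 5.01% and 3.03% of all tested genes. Slc1a4 was at 20.0, 20.9, 19.5 and 21.5 RPKM with 9cisRA and 16.5, 16.6, 16.9 and 16.7 RPKM with DMSO (0.29 ± 0.07, limma adjusted p = 0.0174), and Slc6a4 was at 0.494, 0.495, 0.538 and 0.996 RPKM with 9cisRA and 0.816, 0.798, 1.31 and 1.26 RPKM with DMSO (-0.46 ± 0.12, limma adjusted p = 0.0294). The Slc6a4 groups overlapped, and its adjusted p was 0.154 without the first 9cisRA library of mouse 2.

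At 24 h, atRA raised 7 carriers and lowered 7, against 19.4% and 18.6% of all tested genes, and 9cisRA raised 8 and lowered 8, against 24.4% and 23.5%. With libraries scaled to the sum of reads the split was 5 higher and 9 lower for atRA, and 4 higher and 13 lower for 9cisRA, where that scaling moved the median of all genes to -0.12. No carrier changed by a factor of 2 or more on the test scale with either isomer. The medians over the carriers were 0.05 with atRA and -0.04 with 9cisRA, beside -0.00 over all tested genes with each isomer. Markers moved with the isomers at 24 h too. Of 11 tested enterocyte markers, 6 were higher and 2 lower with atRA, and 8 higher and 2 lower with 9cisRA. Of 7 stem cell markers, 7 were lower with atRA and 6 with 9cisRA, and of 6 dividing-cell markers 5 were lower with each. The summed RPKM of the dividing-cell markers was 284 to 291 with atRA, 254 to 287 with 9cisRA and 350 to 387 with DMSO, and the part of these markers in the carrier values was not tested.

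Slc38a7 was the carrier with the highest log2 fold change under atRA, at 8.37, 8.62, 9.32 and 8.82 RPKM with atRA and 5.46, 6.18, 5.96 and 6.95 RPKM with DMSO at 24 h (0.49 ± 0.07, limma adjusted p = 1.84e-04). With 9cisRA it was at 7.41, 7.84, 8.98 and 9.14 RPKM (0.41 ± 0.07), and neither isomer group overlapped DMSO. Slc6a8 was at 36.7 to 38.1 RPKM with atRA, 38.3 to 46.6 RPKM with 9cisRA and 28.1 to 32.3 RPKM with DMSO, with log2 fold changes of 0.30 ± 0.07 and 0.44 ± 0.07. Slc3a2 was higher by 0.29 ± 0.05 with atRA and 0.28 ± 0.05 with 9cisRA, and Slc6a6 by 0.24 ± 0.05 and 0.25 ± 0.05. Slc1a4 was higher by 0.44 ± 0.07 with atRA and 0.24 ± 0.07 with 9cisRA, and Slc7a7 by 0.17 ± 0.06 and 0.28 ± 0.06. With libraries scaled to the sum of reads, the 9cisRA value of Slc1a4 was 0.12 and that of Slc6a6 0.12, and the atRA value of Slc7a7 was 0.08, none of them called by limma (adjusted p = 0.197, 0.0626 and 0.304). After quantile normalization Slc6a6 was at 0.14 with atRA and 0.13 with 9cisRA and Slc7a7 at 0.09 with atRA, also not called (limma adjusted p = 0.0826, 0.0876 and 0.292). The atRA call for Slc7a7 ended without 1 of 15 libraries, with an adjusted p of 0.0937 by limma without a DMSO library of 24 h.

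The carriers that both isomers lowered were mixed in role. Slc6a4 was at 3.36, 2.98, 4.94 and 4.33 RPKM with atRA, 4.10, 3.54, 5.37 and 6.55 RPKM with 9cisRA and 6.23, 5.88, 7.56 and 8.61 RPKM with DMSO at 24 h. Its log2 fold changes were -0.79 ± 0.12 with atRA and -0.51 ± 0.12 with 9cisRA (limma adjusted p = 2.10e-04 and 3.26e-03). Slc6a19 was lower by -0.60 ± 0.15 and -0.48 ± 0.15, Slc7a8 by -0.37 ± 0.12 and -0.40 ± 0.12, Slc7a5 by -0.29 ± 0.08 and -0.33 ± 0.08, Slc1a5 by -0.21 ± 0.05 and -0.32 ± 0.05 and Slc38a2 by -0.19 ± 0.04 and -0.16 ± 0.04, with atRA first in each pair.

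Some calls were made with 1 isomer, which does not show that the isomers differ. Slc15a1 was called with atRA (-0.38 ± 0.13) and not with 9cisRA (-0.30, limma adjusted p = 0.0675), and Slc3a1 was called higher with atRA (0.34 ± 0.09) and not with 9cisRA (0.23, limma adjusted p = 0.0595). Slc36a1 (0.24 ± 0.09), Slc38a10 (0.19 ± 0.06), Slc7a1 (-0.19 ± 0.05) and Slc7a6 (-0.17 ± 0.06) were called with 9cisRA. Leaving out 1 library ended the 9cisRA calls of Slc36a1, Slc38a10, Slc7a1, Slc7a6 and Slc6a19, with adjusted p up to 0.0734, 0.0990, 0.0530, 0.0699 and 0.0506 by limma, and the atRA call of Slc7a8, at 0.0544. For Slc36a1 each of 17 libraries ended the call, and the largest p came without a 9cisRA library of 24 h. The library was a 9cisRA one of 24 h for Slc38a10 and Slc7a6, a DMSO one of 24 h for Slc7a1 and a 0 h one of mouse 1 for Slc6a19 and Slc7a8. With libraries scaled to the sum of reads, Slc38a10 was at 0.06 and Slc36a1 at 0.12 with 9cisRA and Slc3a1 at 0.25 with atRA, none of them called (limma adjusted p = 0.321, 0.265 and 0.0506).

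**Figure D4:**
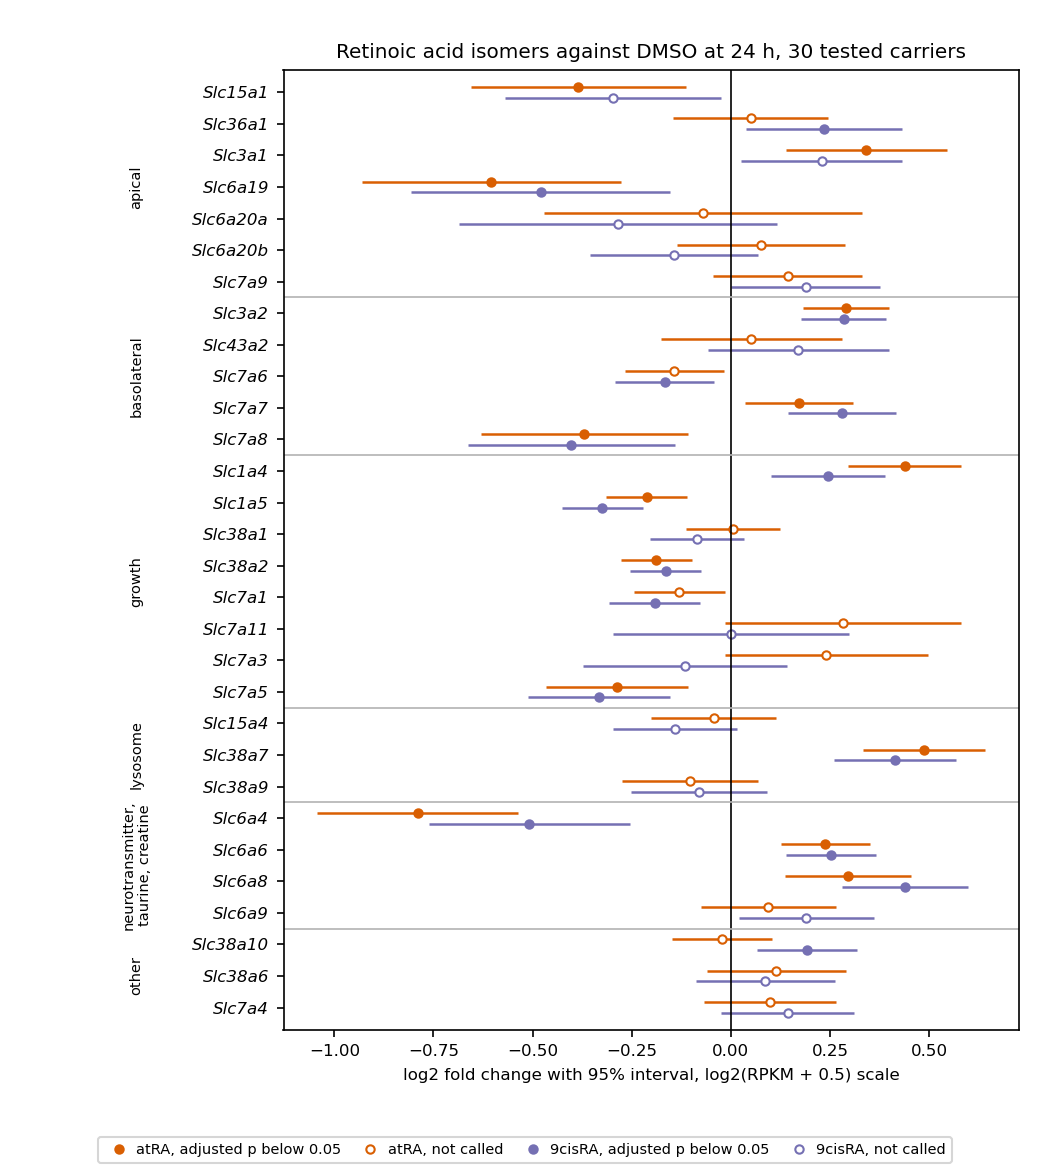
Log2 fold change of atRA (orange) and 9cisRA (purple) against DMSO at 24 h with 95% intervals (horizontal axis) for 30 tested carriers (vertical axis, by role); filled points passed an adjusted p of 0.05. All points lie between -0.79 and 0.49, a narrower range than the axis of the RXRi plot covers.

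The isomers differ in the geometry of 1 double bond of the side chain, and their difference was tested directly at the matched dose of 10 µM, as 1 pair of compounds at 2 times. In 9cisRA against atRA, 0 of 30 carriers were called at 6 h, against 1.55% of all tested genes higher and 0.167% lower, and 0 of 30 at 24 h, against 0.299% and 0.167%. At an unadjusted p under 0.05 there were 0 carriers at 6 h and 6 at 24 h (2 higher, 4 lower), and voom on recovered reads called 0 at both times. The 95% intervals of all carriers lay within -0.49 to 0.49 at 6 h and -0.62 to 0.53 at 24 h on the log2 scale. At 24 h, Slc38a10 came nearest to a call, higher with 9cisRA by 0.22 ± 0.06 (limma adjusted p = 0.159), and Slc7a3 had the lowest log2 difference, -0.36 ± 0.12 (limma adjusted p = 0.243).

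The change of each isomer's effect between 6 h and 24 h was also tested. For atRA it was called higher for 4 carriers and lower for 0, against 10.0% and 7.11% of all tested genes, and 2 higher and 2 lower with libraries scaled to the sum of reads or 3 higher and 1 lower after quantile normalization. For 9cisRA it was called higher for 4 and lower for 1, against 10.1% and 7.90%, and 1 higher and 1 lower under each of these scalings. Slc3a1 changed by 0.45 ± 0.13 with atRA and 0.44 ± 0.13 with 9cisRA, Slc6a6 by 0.39 ± 0.07 and 0.34 ± 0.07, and Slc3a2 by 0.31 ± 0.07 and 0.27 ± 0.07. The Slc3a1 calls ended without 1 of 4 libraries for atRA and 1 of 8 for 9cisRA, with adjusted p up to 0.0873 and 0.0648 by limma, without isomer libraries of 6 h. These 2 calls also ended under both scalings, and the 9cisRA call of Slc6a6 ended after quantile normalization (0.21, limma adjusted p = 0.101). The 9cisRA count went to 3 without 1 of 6 libraries, from 0 h (mouse 2), 6 h (9cisRA, and RXRi of mouse 2) and 24 h (DMSO of mouse 2, and RXRi of mouse 1).

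In all, 9 members did not pass the filter and were not tested. Slc6a3, the dopamine transporter and neighbour of Slc6a19, was at 0.0112, 0, 0 and 0 RPKM in RXRi libraries at 24 h, that is 1 read in all, against 0.423, 0.555, 0.746 and 0.923 RPKM and 241 reads in DMSO libraries. The ratio of reads was 0.00393 (95% exact interval 9.9e-05 to 0.0221, counting error only). Slc6a19os followed with 2 reads in RXRi libraries and 128 in DMSO libraries, and overlaps Slc6a19. Slc1a1, an apical carrier of glutamate, was at 0.033 to 0.0767 RPKM with RXRi and 0.220 to 0.293 RPKM with DMSO at 24 h. Slc6a14, a carrier of neutral and cationic amino acids, stayed at or under 0.295 RPKM in all libraries. Slc7a15, Slc6a7, Slc15a2, Slc36a4 and Slc43a3 reached at most 0.802, 0.591, 0.598, 0.531 and 0.231 RPKM.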

How the data were processed

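Transcript levels were taken as deposited, as RPKM values per gene and library. Per the submitters' processing notes the authors used bcl2fastq 2.17, STAR 2.5.2b and the mm10 genome; the counting tool and its strand setting are not given in the sources used here. The low RPKM steps gave whole reads for 100% of 12652 listed genes (tolerance 0.05 reads). These recovered reads, 19.6 to 30.7 M per library, served read ratios, with exact binomial 95% intervals that cover counting error only, and a voom alternative. The RPKM divisor is not their sum. At 24 h the reads exceeded it, as in the first 9cisRA library of mouse 2 (28.3 M reads, divisor 25.0 M). At 0 h they lay below it, as in the first library of mouse 1 (19.6 M reads, divisor 20.5 M). How the divisor was set is not given in the sources used here.

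The deposited RPKM values were put on the log2 scale after adding 0.5, and duplicates from the same mouse and group entered as their mean, so that 18 values were fitted. A single limma 3.58.1 model (R 4.3.3) held 9 group means and mouse as a block, since samples of a number come from the same animal. Mouse differences correlated between conditions with a median r of 0.441 (0.0372 to 0.662). It gave 14 contrasts over 11361 genes with at least 1 RPKM in at least 4 libraries, with Benjamini-Hochberg adjustment and calls at an adjusted p under 0.05, 8 residual and 5.01 prior degrees of freedom. The fit was also run on simulated data with the same spread for all genes and no mouse effect. That run checks the code and not how well the model suits these data. Tables were handled with Python 3.11.15, NumPy 2.4.6 and pandas 2.3.3.

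Alternatives were other pseudocounts, filters, scalings, voom, no mouse block, and each library or mouse left out. The carriers, gene lists and panel of named carriers were chosen with earlier results of these data known. Values were given for that panel and, per contrast, for the 8 highest and 8 lowest called carriers with the same sign in both mice (3 and 3 for a change of effect), and for up to 4 called genes per pathway list. Promoter windows came from RefSeq on GRCm38.p6, matched by Entrez gene identifier for 29 of 38 carriers. A total of 11 motifs was searched. A gene of the pathway lists is not reported here by name.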

Additional observations from a re-analysis of the deposited data

Results flagged for a closer look

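Among 198 checks of 4 libraries each, 11 had 1 library that stood apart from the other 3 by Dixon's ratio (the gap to the nearest library over the whole range). Chance gives about 1 in 20 for 4 independent values. The libraries here are duplicates of 2 mice, so the 11 cannot be read against that rate. Slc6a4 was flagged in 24 h RXRi (0.0387 RPKM in the first library of mouse 2 and 0 in the others, ratio 1), in 6 h 9cisRA (0.996 RPKM against 0.494 to 0.538, ratio 0.913) and at 0 h (1.59 RPKM against 0.906 to 1.02, ratio 0.829). Slc7a11 was flagged in 24 h RXRi (9.77 RPKM against 8.81 to 8.92, ratio 0.888), in 24 h DMSO (3.75 RPKM against 3.91 to 3.94, ratio 0.839) and at 0 h (4.6 RPKM against 5.78 to 5.99, ratio 0.848). The others were Slc7a5 in 6 h RXRi (ratio 0.873), Slc1a5 in 6 h 9cisRA (0.87), Slc38a2 in 24 h DMSO (0.879), Slc3a2 in 6 h DMSO (0.841) and Slc6a20a at 0 h (0.877).

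Effects also differed between 24 h and 6 h by the test of the change, for 23 carriers with RXRi, 4 with atRA and 5 with 9cisRA. The 3 highest and 3 lowest called in each, or as many as there were, are given as the 24 h effect minus the 6 h effect on the log2 scale with limma. Of the carriers named next, Slc7a3 passed the filter on low values only through RXRi libraries of 24 h. Slc6a20a passed it only through DMSO, atRA and 9cisRA libraries of 24 h. With RXRi, the change was -3.53 for Slc6a19, -3.03 for Slc6a20a, -2.83 for Slc7a9, 1.53 for Slc7a3, 1.10 for Slc6a9 and 1.01 for Slc7a11. With atRA it was 0.45 for Slc3a1, 0.39 for Slc6a6 and 0.38 for Slc38a7, whose adjusted p was 0.06 by limma without the first 24 h DMSO library of mouse 2. With 9cisRA it was 0.44 for Slc3a1, 0.34 for Slc6a6, 0.28 for Slc7a7 and -0.23 for Slc1a5, and the Slc7a7 call ended without 1 of 22 libraries, with an adjusted p of up to 0.0803 by limma. Under the scaling to summed reads the change of Slc38a7 with atRA was 0.28 and that of Slc7a7 with 9cisRA 0.16, neither called (limma adjusted p = 0.0606 and 0.183).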

How the results depend on the processing

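Of 138 called values of named carriers, 96 kept their call and direction in every alternative run, 42 lost the call in at least 1, and 0 reversed. The paired design mattered most: without the mouse block, 26 of these calls were lost, and the carriers called went to 9 for atRA at 24 h (14 with the block), 10 for 9cisRA at 24 h (16), 1 for 9cisRA at 6 h (2), 2 for the change of the atRA effect (4) and 1 for that of the 9cisRA effect (5); the cause was not tested beyond the pairing by animal. The 9cisRA count at 6 h was also 1 with a pseudocount of 1 or a mean of at least 5 RPKM, and the atRA count at 6 h was 1 with a pseudocount of 0.1. With that mean filter, which tests fewer carriers, DMSO at 24 h against 6 h gave 11 calls (18). The 9cisRA change gave 2 after quantile normalization or scaling to summed reads, and the cause was not tested. Leaving out 1 library gave 0 to 2 calls for atRA and 1 to 3 for 9cisRA at 6 h, and 12 to 15 and 14 to 18 at 24 h. It gave 3 to 5 and 3 to 7 for their changes. RXRi gave 26 in each such run at 24 h (26) and 13 to 19 at 6 h (16). Runs without 1 mouse, which treat the duplicates of the other as replicates, count among the alternative runs above and are left out of these ranges. The number of animals, 2, limits all p-values, and low carriers rest on few reads.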
